A study of Mus musculus with 12 samples.

Results

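The T cell receptor signalling genes are 44 genes chosen by their symbols: the chains of the receptor complex, the CD4 coreceptor, and the kinases, adaptors, enzymes, calcium channel parts, transcription factors and inhibitors that pass on or limit its signal. All 44 were found among the 24538 gene rows of the deposited table, and all 44 were among the 12436 genes that were tested. Their messenger RNA was measured by RNA sequencing of CD4+ T cells from spleen and lymph nodes of C57BL/6 mice. The cells had been activated, by means that the labels do not state, and cultured with interleukin 6 (IL-6) plus a TGFbR inhibitor, which blocks the receptor of TGF-β. All 12 libraries share this treatment. The 4 groups of 3 libraries were CD4cre;Smad4fl/fl cells at 12 h, WT cells at 12 h, CD4cre;Smad4fl/fl cells at 3 h and WT cells at 3 h after treatment. The first genotype, called KO here, joins a loxP-flanked Smad4 to a Cre recombinase driven by Cd4, so that T cells lose SMAD4, the shared partner of the SMAD proteins that carry TGF-β signals, after Cd4 is switched on in the thymus. The labels do not say whether WT cells carried the Cre. Nor do they say whether libraries of a group came from separate mice, so p-values measure the spread between these libraries. That spread may be technical, except that the libraries numbered 2 differ from the others of their group in sex-linked genes, as given below. The study set WT against KO cells to learn how SMAD4 and its partner SKI restrain the helper T cells that make interleukin 17.

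A T cell receptor that binds peptide on a major histocompatibility complex has its CD3 and ζ chains phosphorylated by LCK, which CD4 brings close. ZAP70 docks on these chains and phosphorylates the adaptors LAT and SLP-76, on which phospholipase Cγ1 is assembled. Its products open calcium entry, which drives calcineurin and NFAT, and activate RAS through RASGRP1 and NF-κB through protein kinase Cθ with BCL10 and MALT1. Phosphatases, ubiquitin ligases and diacylglycerol kinases end the signal, and many parts of the machinery are themselves regulated after a T cell is activated.

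Values are deposited log2 values without a length correction, so levels were compared between libraries and never between genes. Read depth cannot be had from them. The first principal component of the 12 libraries held 80.9% of the variance, and libraries of 1 group correlated at 0.9928 to 0.9958. Smad4 itself differed by 0.02 ± 0.06 (SE, n = 3 per group) between KO and WT at 12 h and by 0.00 ± 0.06 at 3 h (limma adjusted p = 1.00 and 0.993). A value over the whole gene can keep reads of the parts that Cre leaves, so it does not check the genotype labels, and every direction given for KO rests on those labels. The labels state female mice, yet the 4 libraries numbered 2, 1 in each group, held Xist at 4.55 to 5.70 and the Y-linked Ddx3y at 12.3 to 12.7, against 15.1 to 16.3 and 2.39 to 2.77 in the 8 others. Counts without these 4 libraries are therefore given beside the main ones. Cd3e, Cd3d, Cd3g and Cd4 lay between 12.37 and 14.57 in all 12 libraries. Of the CD8 markers, Cd8a lay between 4.09 and 5.99 and Cd8b1 between 8.55 and 9.10. KO minus WT was 0.54 at 12 h and 0.99 at 3 h for Cd8a and -0.25 and 0.11 for Cd8b1, with 0 called. The constant genes of the receptor's α, β and δ chains were not analysed here.

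Most T cell receptor signalling genes changed between the 2 collection times, and more of them were lower than higher at 12 h. In KO, 12 members were higher and 27 lower at 12 h than at 3 h, and in WT 11 were higher and 28 lower (limma adjusted p under 0.05, n = 3 per group). The 39 called members of each genotype are 88.6% of the 44, against 68% of the 12436 genes tested in KO and 67.9% in WT. Over all genes the calls were balanced, with 34.3% higher and 33.6% lower in each genotype. The median difference of the members was -0.48 in KO and -0.47 in WT, and that of all genes was 0.00 in both. Of the 44 members, 34 stood among the 3109 genes with the highest mean value, where 45.6% of all genes were called lower in KO and 44.7% in WT. With each library's median subtracted, the median of all genes shifted by -0.13 in KO and -0.11 in WT. Over all genes 3459 rose and 5108 fell in KO, against 4269 and 4184 as deposited. In WT 3535 rose and 4840 fell, against 4271 and 4178 as deposited. The members then gave 9 higher and 28 lower in each genotype. Without the 4 libraries numbered 2, 13 members were higher and 25 lower in KO, and 9 higher and 26 lower in WT. Calls over all genes in that smaller fit are not given here. Values at 12 h and 3 h did not overlap for 39 members in KO, where 69.5% of genes did not, and for 39 in WT, where 72.7% did not. In bulk RNA, fewer cells of a type and less RNA per cell cannot be told apart.

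**Figure D1:**
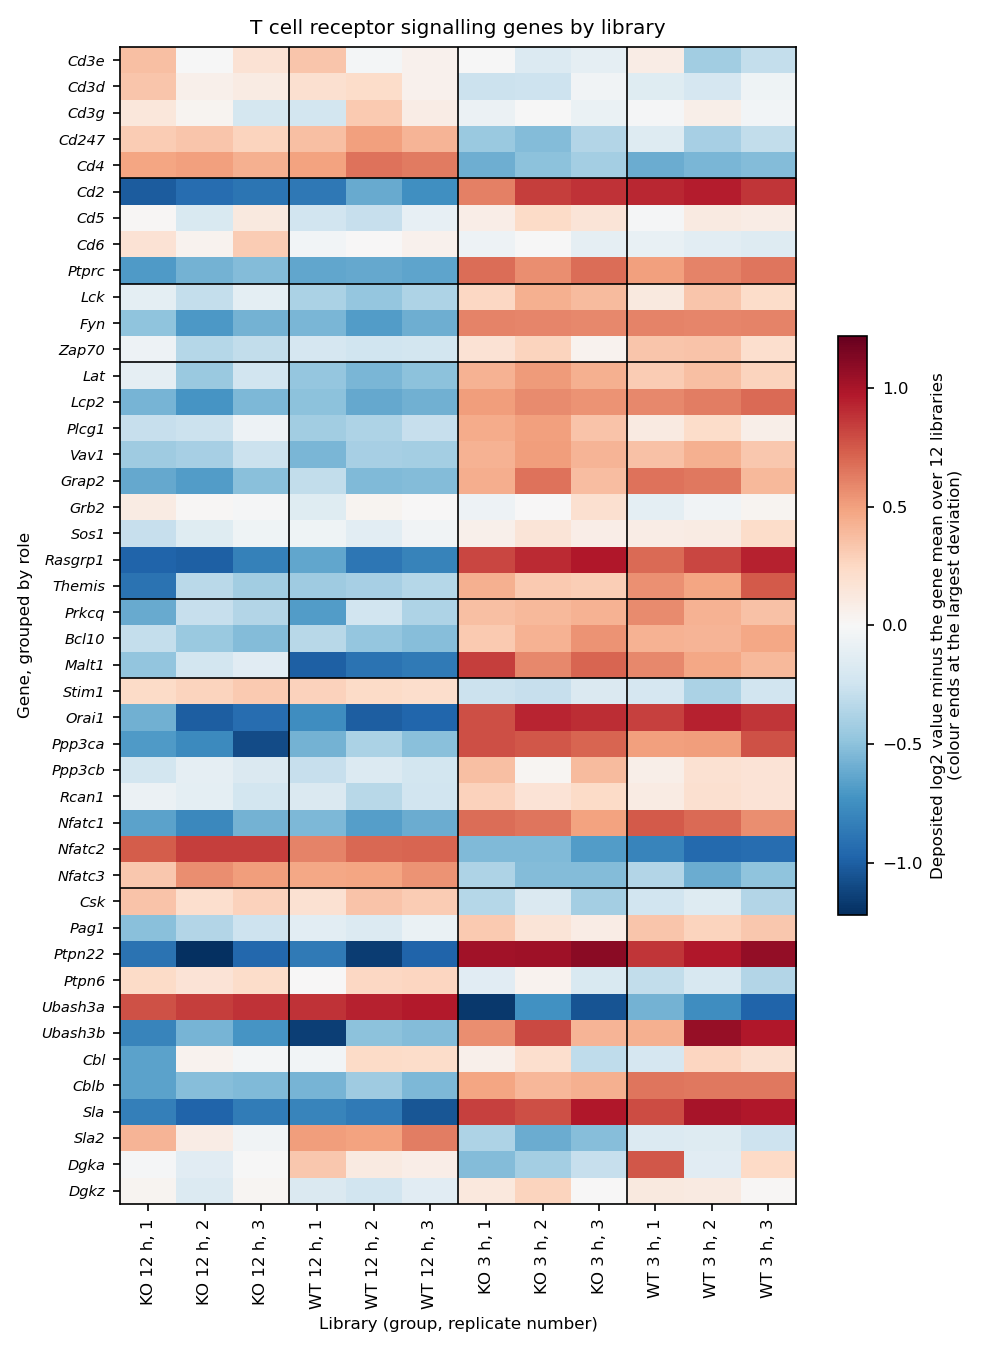
The deposited log2 value of each of the 44 members in each of the 12 libraries, less the mean of that gene over the 12, with genes grouped by role and colour ends at the largest deviation. A reader should see that most genes are blue in the 6 libraries at 12 h and red in the 6 at 3 h, that Cd3d, Cd247, Cd4, Stim1, Nfatc2, Nfatc3, Csk, Ptpn6, Ubash3a and Sla2 show the reverse, and that KO and WT columns of 1 time look alike for most genes.

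The change with time was of like size in both genotypes. Of the members, 27 were called lower in both genotypes, where 30.1% of all genes were, and 10 higher in both, where 31.1% were. Another 2 were called in KO alone, 2 in WT alone and 3 in neither. Across the 44 members, which are not independent replicates, the difference in KO and that in WT had a Pearson correlation of 0.984, given as a description. The myeloid and dendritic cell markers also moved with time. All 15 listed were in the table and none was at 0 in every library, 6 were tested, and all 6 were lower at 12 h in both genotypes. Their summed level was 7.42 to 7.64 in KO and 7.44 to 7.83 in WT at 12 h, against 9.03 to 9.25 in KO and 8.81 to 9.004 in WT at 3 h. Of 16 B cell markers listed, 14 were in the table, 0 of them at 0 in all libraries, and 7 of the 14 were called lower and 0 higher at 12 h in each genotype. Their summed level was 8.66 to 8.91 in KO and 8.92 to 9.26 in WT at 12 h, against 9.26 to 9.67 in KO and 9.68 to 9.91 in WT at 3 h. The part of either list in the change of the members was not tested.

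**Figure D2:**
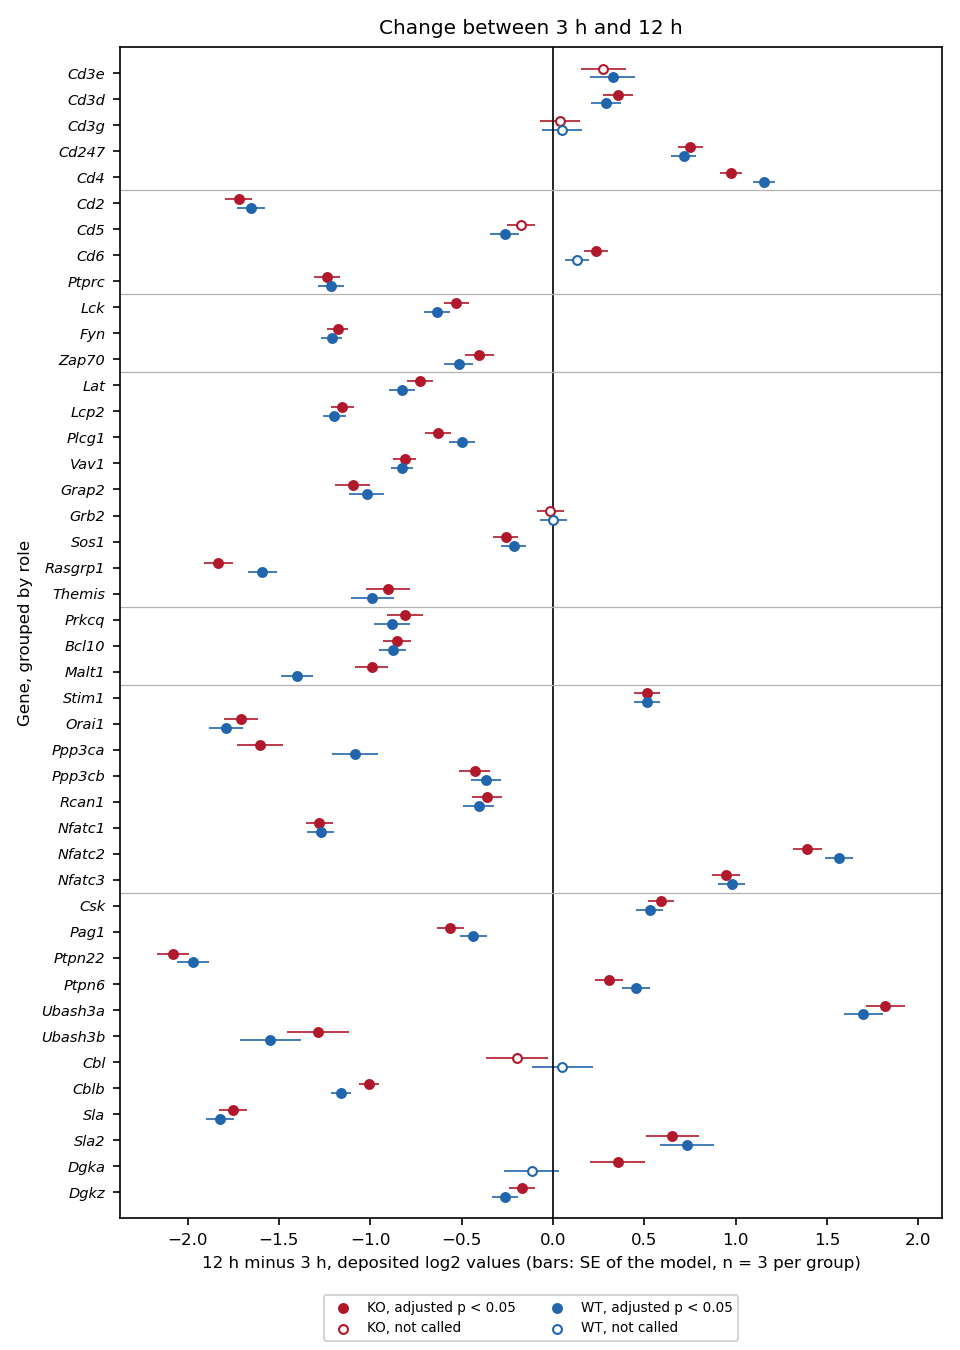
The difference 12 h minus 3 h in deposited log2 values for each member (horizontal axis), in KO (red) and WT (blue), with bars for the SE of the limma model (n = 3 per group) and filled points for an adjusted p under 0.05. A reader should see the span from Ptpn22, with -2.08 in KO, to Ubash3a, with 1.82 in KO, and the near overlap of the red and blue points of most genes; Dgkz in KO is the 1 called member whose sign turned under a tested scaling, quantile normalization.

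The chains of the receptor complex and its coreceptor did not fall as most members did. Of these 5 genes, 3 rose and 0 fell in KO, and 4 rose and 0 fell in WT. Cd4, the coreceptor that binds MHC class II (chromosome 6, 124864692 to 124888221, GRCm38), stood at 14.39, 14.40 and 14.34 in KO and 14.40, 14.57 and 14.54 in WT at 12 h, against 13.31, 13.40 and 13.49 in KO and 13.31, 13.35 and 13.38 in WT at 3 h. All values at 12 h lay above all values at 3 h, and Cd4 rose, by 0.98 ± 0.06 in KO and 1.16 ± 0.06 in WT (adjusted p = 1.06e-09 and 1.59e-10), in limma's moderated test with SE from 3 libraries per group. Cd247, which encodes the ζ chain with most of the complex's signalling motifs (chromosome 1, 165788681 to 165877277), had 13.57, 13.60 and 13.53 in KO and 13.63, 13.77 and 13.67 in WT at 12 h, against 12.81, 12.73 and 12.90 in KO and 13.11, 12.86 and 12.96 in WT at 3 h. Its times did not overlap either, and it rose, by 0.75 ± 0.07 in KO and 0.71 ± 0.07 in WT (adjusted p = 7.15e-08 and 1.25e-07). Of its exon bases, 60.3% are shared with Pou2f1 on the opposite strand. The library kit does not mark strand, so reads over these shared bases cannot be assigned to 1 of the 2 genes. Cd3d, the δ chain, rose, by 0.35 ± 0.08 in KO and 0.29 ± 0.08 in WT (adjusted p = 0.00105 and 0.0047). Cd3e, the ε chain (chromosome 9, 44998740 to 45009627), held 13.54, 13.18 and 13.36 in KO and 13.51, 13.15 and 13.23 in WT at 12 h, against 13.17, 13.01 and 13.07 in KO and 13.27, 12.75 and 12.89 in WT at 3 h. In WT 1 library at 3 h reached into the range at 12 h, and in KO the times were just apart. The difference was 0.28 ± 0.12 in KO and 0.33 ± 0.12 in WT (adjusted p = 0.0554 and 0.0262), so it was called in WT alone. Cd3g, the γ chain (chromosome 9, 44969572 to 44980431), had 12.74, 12.63 and 12.39 in KO and 12.37, 12.92 and 12.69 in WT at 12 h, against 12.53, 12.60 and 12.52 in KO and 12.59, 12.67 and 12.57 in WT at 3 h. Its values at both times were interleaved, with a difference of 0.04 ± 0.11 in KO and 0.05 ± 0.11 in WT (adjusted p = 0.773 and 0.699). The WT calls of Cd3d and Cd3e were lost with each library's median subtracted (0.18 and 0.22, limma adjusted p = 0.0618 and 0.112). They were also lost without the 4 libraries numbered 2 (0.22 and 0.29, adjusted p = 0.0878 and 0.0704). In KO the call of Cd3d held in 21 of 21 alternatives.

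Surface proteins that tune the signal changed unevenly. Cd2, the adhesion receptor for CD48 in mice (chromosome 3, 101275899 to 101287939), was at 12.73, 12.82 and 12.86 in KO and 12.88, 13.14 and 13.00 in WT at 12 h, against 14.36, 14.59 and 14.63 in KO and 14.67, 14.70 and 14.62 in WT at 3 h. No library at 12 h reached any library at 3 h, and Cd2 fell, with -1.72 ± 0.08 in KO and -1.65 ± 0.08 in WT (adjusted p = 2.68e-11 and 3.94e-11). Ptprc encodes CD45, the phosphatase that keeps LCK ready to act, and it fell, with -1.24 ± 0.07 in KO and -1.22 ± 0.07 in WT (adjusted p = 4.44e-10 and 5.07e-10). Cd5 and Cd6 are neighbouring genes on chromosome 19 for related scavenger-receptor proteins that restrain the signal. Cd5 (chromosome 19, 10717116 to 10739002) had 15.89, 15.70 and 16.00 in KO and 15.65, 15.60 and 15.78 in WT at 12 h, against 15.96, 16.12 and 16.04 in KO and 15.87, 15.99 and 15.97 in WT at 3 h. In WT every value at 12 h lay below every value at 3 h, in KO the highest at 12 h lay within the 3 h range, and the difference was -0.17 ± 0.08 in KO and -0.26 ± 0.08 in WT (adjusted p = 0.0611 and 0.00777). Cd6 (chromosome 19, 10789341 to 10830058) had 15.96, 15.82 and 16.09 in KO and 15.74, 15.78 and 15.83 in WT at 12 h, against 15.71, 15.77 and 15.67 in KO and 15.69, 15.65 and 15.63 in WT at 3 h. All values at 12 h were above those at 3 h in KO, and in WT too, with a difference of 0.24 ± 0.07 in KO and 0.13 ± 0.07 in WT (adjusted p = 0.00538 and 0.096). Cd5 thus passed the test in WT alone and Cd6 in KO alone, while the difference between the genotypes in this change was 0.09 ± 0.11 for Cd5 and 0.11 ± 0.10 for Cd6 (adjusted p = 0.999 for both).

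The kinases nearest to the receptor all fell, 3 of 3 in each genotype. Lck, the kinase that phosphorylates the CD3 and ζ chains (chromosome 4, 129548344 to 129573641), had 14.69, 14.51 and 14.69 in KO and 14.41, 14.33 and 14.43 in WT at 12 h, against 15.05, 15.23 and 15.19 in KO and 14.92, 15.14 and 15.03 in WT at 3 h. Every 12 h value was below every 3 h value, and Lck fell, with -0.53 ± 0.07 in KO and -0.64 ± 0.07 in WT (adjusted p = 6.54e-06 and 8.35e-07). Zap70, the kinase that docks on the phosphorylated chains (chromosome 1, 36761798 to 36782818), had 15.23, 14.94 and 14.99 in KO and 15.09, 15.05 and 15.07 in WT at 12 h, against 15.47, 15.57 and 15.33 in KO and 15.63, 15.64 and 15.50 in WT at 3 h. Its times were also apart, and it fell, with -0.40 ± 0.08 in KO and -0.52 ± 0.08 in WT (adjusted p = 0.00026 and 2.32e-05). Under quantile normalization the difference of Zap70 in KO shrank to -0.10 (adjusted p = 0.28). Fyn, a kinase of the LCK family, fell, with -1.18 ± 0.06 in KO and -1.21 ± 0.06 in WT (adjusted p = 1.08e-10 and 7.59e-11), and its 6 values at 3 h ran only from 15.78 to 15.80.

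Of the 9 adaptors and effector enzymes, 8 fell and 0 rose in each genotype. Rasgrp1, which loads RAS with GTP when it senses diacylglycerol (chromosome 2, 117279993 to 117343001), was at 11.98, 11.96 and 12.14 in KO and 12.32, 12.08 and 12.14 in WT at 12 h, against 13.77, 13.87 and 13.94 in KO and 13.64, 13.78 and 13.89 in WT at 3 h. The gap between the times was wider than the spread within any group, and Rasgrp1 fell, with -1.83 ± 0.08 in KO and -1.59 ± 0.08 in WT (adjusted p = 2.07e-11 and 8.78e-11), or 3.56-fold and 3.01-fold. Sos1, the other RAS exchange factor on the list, fell, with -0.26 ± 0.07 in KO and -0.21 ± 0.07 in WT (adjusted p = 0.00398 and 0.013). Most genes of the scaffold that gathers around LAT fell, by unlike amounts. Lcp2, which encodes SLP-76, fell, with -1.15 ± 0.06 in KO and -1.20 ± 0.06 in WT (adjusted p = 2.69e-10 and 1.64e-10). Grap2, which encodes the bridging adaptor GADS, fell, with -1.10 ± 0.10 in KO and -1.02 ± 0.10 in WT (adjusted p = 5.71e-08 and 1.31e-07). Lat fell, with -0.73 ± 0.07 in KO and -0.83 ± 0.07 in WT (adjusted p = 2.71e-07 and 6.25e-08). Vav1, an exchange factor for RAC that acts on actin, fell, with -0.81 ± 0.06 in KO and -0.83 ± 0.06 in WT (adjusted p = 1.14e-08 and 8.9e-09). Plcg1, the phospholipase that makes the 2 second messengers, fell, with -0.63 ± 0.07 in KO and -0.50 ± 0.07 in WT (adjusted p = 9.37e-07 and 1.23e-05). Themis, an adaptor needed for thymocyte selection, fell, with -0.90 ± 0.12 in KO and -0.99 ± 0.12 in WT (adjusted p = 6.01e-06 and 2.21e-06). Grb2, the adaptor that carries SOS1, was the exception, with -0.01 ± 0.07 in KO and 0.00 ± 0.07 in WT (adjusted p = 0.872 and 0.976). The PKCθ arm fell too, 3 of 3 in each genotype. Prkcq fell, with -0.81 ± 0.10 in KO and -0.88 ± 0.10 in WT (adjusted p = 3.23e-06 and 1.25e-06). Bcl10 fell, with -0.85 ± 0.07 in KO and -0.88 ± 0.07 in WT (adjusted p = 5.96e-08 and 4.36e-08). Malt1, the paracaspase of that complex, fell, with -0.99 ± 0.09 in KO and -1.40 ± 0.09 in WT (adjusted p = 6.34e-08 and 1.18e-09).

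Within the calcium and NFAT branch the members were split, with 3 rising and 5 falling in each genotype. Orai1, the pore of the calcium release-activated channel (chromosome 5, 123015074 to 123030456), had 12.67, 12.25 and 12.32 in KO and 12.50, 12.25 and 12.29 in WT at 12 h, against 14.04, 14.19 and 14.15 in KO and 14.09, 14.19 and 14.13 in WT at 3 h. Stim1, the sensor in the endoplasmic reticulum that opens that pore (chromosome 7, 102267806 to 102437319), had 10.96, 11.01 and 11.05 in KO and 11.01, 10.97 and 10.95 in WT at 12 h, against 10.47, 10.45 and 10.56 in KO and 10.53, 10.35 and 10.50 in WT at 3 h. The times were apart for both genes and in opposite directions. Orai1 fell, with -1.71 ± 0.09 in KO and -1.79 ± 0.09 in WT (adjusted p = 2.83e-10 and 1.63e-10). Stim1 rose, by 0.51 ± 0.07 in KO and 0.52 ± 0.07 in WT (adjusted p = 9.64e-06 and 8.86e-06). Ppp3ca, a catalytic subunit of calcineurin (chromosome 3, 136670124 to 136937727), was at 8.19, 8.10 and 7.79 in KO and 8.30, 8.49 and 8.37 in WT at 12 h, against 9.66, 9.64 and 9.59 in KO and 9.38, 9.39 and 9.65 in WT at 3 h. All 12 h libraries were lower than all 3 h libraries, those of KO lowest, and Ppp3ca fell, with -1.60 ± 0.13 in KO and -1.08 ± 0.13 in WT (adjusted p = 1.74e-08 and 1.36e-06). Ppp3cb, the other catalytic subunit listed, fell, with -0.43 ± 0.08 in KO and -0.37 ± 0.08 in WT (adjusted p = 0.000253 and 0.000977). Rcan1, a calcineurin regulator that is itself an NFAT target, fell, with -0.36 ± 0.08 in KO and -0.41 ± 0.08 in WT (adjusted p = 0.00133 and 0.000501).

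The 3 NFAT genes, which encode the transcription factors that calcineurin sends to the nucleus, did not move as one. Nfatc1 (chromosome 18, 80606205 to 80713071), of which T cells make a short inducible form, was at 14.41, 14.28 and 14.49 in KO and 14.52, 14.39 and 14.46 in WT at 12 h, against 15.74, 15.72 and 15.56 in KO and 15.81, 15.76 and 15.62 in WT at 3 h. Nfatc2 (chromosome 2, 168476410 to 168601657), abundant in resting T cells, was at 11.26, 11.36 and 11.36 in KO and 11.12, 11.22 and 11.23 in WT at 12 h, against 9.98, 9.98 and 9.84 in KO and 9.71, 9.57 and 9.59 in WT at 3 h. Nfatc3 (chromosome 8, 106058840 to 106130537) was at 13.02, 13.26 and 13.20 in KO and 13.16, 13.17 and 13.24 in WT at 12 h, against 12.31, 12.16 and 12.17 in KO and 12.34, 12.09 and 12.20 in WT at 3 h. Every 12 h value was below every 3 h value for Nfatc1, and above it for Nfatc2 and Nfatc3. Nfatc1 fell, with -1.28 ± 0.07 in KO and -1.27 ± 0.07 in WT (adjusted p = 3.8e-10 and 3.72e-10). Nfatc2 rose, by 1.39 ± 0.08 in KO and 1.57 ± 0.08 in WT (adjusted p = 3e-10 and 8.07e-11), or 2.63-fold and 2.96-fold. Nfatc3 rose, by 0.95 ± 0.07 in KO and 0.98 ± 0.07 in WT (adjusted p = 1.86e-08 and 1.21e-08).

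Genes whose products limit the signal were split as well: of 12, 5 rose and 6 fell in KO, and 4 rose and 6 fell in WT. CSK and PTPN22 act as partners on LCK, CSK by adding the inhibitory phosphate and PTPN22 by removing the activating one. Csk (chromosome 9, 57626646 to 57653631) stood at 14.19, 14.05 and 14.13 in KO and 14.03, 14.19 and 14.15 in WT at 12 h, against 13.49, 13.67 and 13.43 in KO and 13.61, 13.69 and 13.49 in WT at 3 h. Ptpn22 (chromosome 3, 103859795 to 103912247) stood at 14.06, 13.75 and 14.00 in KO and 14.10, 13.81 and 13.99 in WT at 12 h, against 15.99, 15.99 and 16.07 in KO and 15.84, 15.94 and 16.04 in WT at 3 h. Neither gene's times overlapped, but they moved in opposite directions. Csk rose, by 0.59 ± 0.07 in KO and 0.53 ± 0.07 in WT (adjusted p = 2.38e-06 and 7.72e-06). Ptpn22 fell, with -2.08 ± 0.09 in KO and -1.97 ± 0.09 in WT (adjusted p = 1.61e-11 and 2.52e-11), or 4.22-fold and 3.92-fold, the largest fall of any member in each genotype. Pag1, the membrane anchor of CSK, fell, with -0.56 ± 0.07 in KO and -0.43 ± 0.07 in WT (adjusted p = 6.01e-06 and 8.43e-05). Ptpn6, which encodes the phosphatase SHP-1, rose, by 0.30 ± 0.08 in KO and 0.45 ± 0.08 in WT (adjusted p = 0.00206 and 6.39e-05).

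A pair of related proteins that dampen the signal at ZAP70, STS-2 from Ubash3a and STS-1 from Ubash3b, came from genes that moved in opposite directions. Ubash3a (chromosome 17, 31207873 to 31246892) had 12.15, 12.21 and 12.25 in KO and 12.25, 12.31 and 12.34 in WT at 12 h, against 10.20, 10.64 and 10.32 in KO and 10.80, 10.62 and 10.39 in WT at 3 h. Ubash3b (chromosome 9, 41011098 to 41161697) had 12.08, 12.32 and 12.17 in KO and 11.74, 12.38 and 12.36 in WT at 12 h, against 13.45, 13.69 and 13.29 in KO and 13.32, 13.95 and 13.85 in WT at 3 h. Ubash3a was high in all libraries at 12 h and Ubash3b in all at 3 h, and WT library 1 was the lowest of its group for Ubash3b at each time. Ubash3a rose, by 1.82 ± 0.11 in KO and 1.70 ± 0.11 in WT (adjusted p = 5.28e-10 and 1.14e-09), or 3.53-fold and 3.24-fold, the largest rise of any member in each genotype. Ubash3b fell, with -1.29 ± 0.17 in KO and -1.55 ± 0.17 in WT (adjusted p = 5.03e-06 and 6.59e-07), or 2.44-fold and 2.92-fold.

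The adaptors SLAP, from Sla, and SLAP-2, from Sla2, which bring the ubiquitin ligase CBL to the receptor, were split in the same manner. Sla (chromosome 15, 66780819 to 66831829) had 14.01, 13.86 and 13.98 in KO and 14.04, 13.98 and 13.80 in WT at 12 h, against 15.67, 15.63 and 15.81 in KO and 15.64, 15.84 and 15.81 in WT at 3 h. Sla2 (chromosome 2, 156872457 to 156887192) had 8.17, 7.85 and 7.71 in KO and 8.27, 8.25 and 8.38 in WT at 12 h, against 7.38, 7.15 and 7.24 in KO and 7.59, 7.60 and 7.51 in WT at 3 h. The times did not overlap for either. Sla fell, with -1.75 ± 0.08 in KO and -1.82 ± 0.08 in WT (adjusted p = 2.45e-11 and 1.48e-11). Sla2 rose, by 0.65 ± 0.15 in KO and 0.73 ± 0.15 in WT (adjusted p = 0.000896 and 0.000334), though 23.6% of its exon bases are shared with Rab5if on the opposite strand. Of the ubiquitin ligases, Cblb fell, with -1.01 ± 0.06 in KO and -1.16 ± 0.06 in WT (adjusted p = 2.95e-10 and 6.1e-11). Cbl had -0.20 ± 0.17 in KO and 0.05 ± 0.17 in WT (adjusted p = 0.315 and 0.798). Dgkz, one of the kinases that remove diacylglycerol, fell, with -0.17 ± 0.07 in KO and -0.26 ± 0.07 in WT (adjusted p = 0.0422 and 0.00403). Under quantile normalization its difference in KO turned to 0.01, and its call in KO held in 8 of 21 alternatives.

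**Figure D3:**
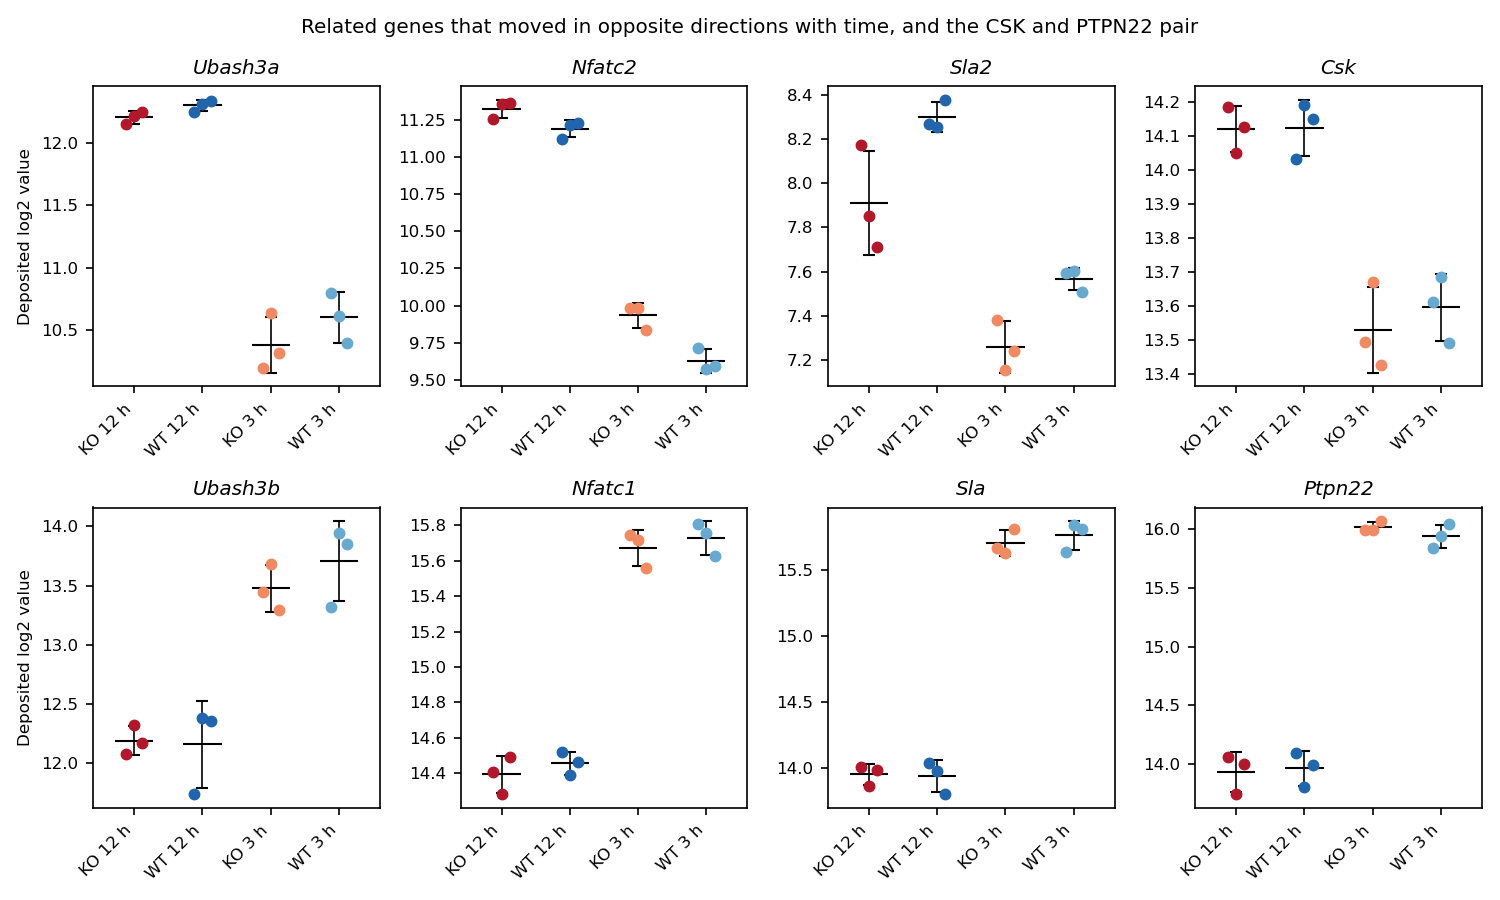
Deposited log2 values (vertical axis, a separate range in each panel) of 4 pairs of negative regulators or NFAT genes in KO at 12 h, WT at 12 h, KO at 3 h and WT at 3 h, with 1 point per library, a line at the group mean and bars of 1 SD (n = 3). A reader should see that Ubash3a, Nfatc2, Sla2 and Csk in the upper panels are higher at 12 h and Ubash3b, Nfatc1, Sla and Ptpn22 below them are lower, in both genotypes and with no overlap between the times.

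Promoters are shown for the pair of STS genes that moved apart, for the NFAT gene with the largest rise, for Ptpn22, which had the largest fall, and for Dgka, the 1 member called between genotypes at 3 h. Each is the stretch of 250 bases before a RefSeq start (GRCm38.p6), on the gene's own strand. Where the table held several starts, 2 for Ubash3b, Nfatc2 and Ptpn22 and 4 for Dgka, the first whose next bases are in a GENCODE transcript was taken. By the GENCODE positions the windows of Ubash3b and Dgka, and 193 bases of that of Ubash3a, lie inside the annotated gene. Capitals mark the letters GGAAA, the core of NFAT sites, or CAGAC, the SMAD box, or the reverse complement of either.
Ubash3a, chr17:31207816-31208065, plus strand: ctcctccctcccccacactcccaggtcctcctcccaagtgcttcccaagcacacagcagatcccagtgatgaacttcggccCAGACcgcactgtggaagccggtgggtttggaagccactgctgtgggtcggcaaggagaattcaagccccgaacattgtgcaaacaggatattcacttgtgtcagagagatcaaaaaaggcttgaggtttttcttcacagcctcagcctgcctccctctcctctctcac
Ubash3b, chr9:41158063-41158312, minus strand: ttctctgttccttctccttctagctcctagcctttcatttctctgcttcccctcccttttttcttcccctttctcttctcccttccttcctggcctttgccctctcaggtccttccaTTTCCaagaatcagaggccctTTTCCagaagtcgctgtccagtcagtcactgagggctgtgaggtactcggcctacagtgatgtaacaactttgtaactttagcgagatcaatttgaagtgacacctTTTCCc
Nfatc2, chr2:168601658-168601907, minus strand: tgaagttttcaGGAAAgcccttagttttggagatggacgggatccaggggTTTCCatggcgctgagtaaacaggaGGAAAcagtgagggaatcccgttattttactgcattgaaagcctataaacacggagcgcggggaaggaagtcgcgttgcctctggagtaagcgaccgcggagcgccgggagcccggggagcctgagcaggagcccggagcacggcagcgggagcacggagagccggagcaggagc
Ptpn22, chr3:103859545-103859794, plus strand: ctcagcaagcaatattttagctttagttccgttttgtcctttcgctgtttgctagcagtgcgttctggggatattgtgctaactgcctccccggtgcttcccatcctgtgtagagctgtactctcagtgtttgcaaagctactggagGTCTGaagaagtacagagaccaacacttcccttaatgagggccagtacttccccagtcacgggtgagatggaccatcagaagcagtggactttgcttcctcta
Dgka, chr10:128744077-128744326, minus strand: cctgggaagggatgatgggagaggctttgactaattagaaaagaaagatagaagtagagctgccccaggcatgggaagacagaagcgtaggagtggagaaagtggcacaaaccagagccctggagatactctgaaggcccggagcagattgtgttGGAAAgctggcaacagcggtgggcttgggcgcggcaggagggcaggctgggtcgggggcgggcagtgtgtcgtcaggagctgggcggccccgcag
The window of Ubash3b held 3 NFAT cores and that of Ubash3a held 0, while Nfatc2, which rose like Ubash3a, held 3. The SMAD box was found 1 time before Ubash3a and 1 time before Ptpn22, and 0 times in the other windows printed. Dgka had 1 NFAT core, and the AP-1 letters TGANTCA occurred in 0 of the 5 windows. At the starts not printed there was 1 NFAT core each for Ubash3b, Nfatc2 and Ptpn22 and 0 to 2 for Dgka, with 3 SMAD boxes for Nfatc2, 2 for Ptpn22 and 0 for the others, so the counts depend on the start. Of the members, 36 had an entry in the RefSeq promoter table, with 52 start sites. The NFAT core was in 65.4% of these 52 windows, against 55.6% of all 32851 windows of the same length, on either strand. It was in 66.7% of the 12 windows of members higher at 12 h in both genotypes and in 63.3% of the 30 windows of members lower in both. The SMAD box was in 36.5% of the members' windows and 42.2% of all, and the AP-1 letters in 1.92% and 6.75%. No 2 matches overlapped in the windows printed, and a match describes letters and not a bound site.

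Between KO-labelled and WT cells few T cell receptor signalling genes were called. At 12 h, 1 of 44 members was called, Malt1, which was higher (2.27% of members). Of all genes 0.667% were called at 12 h, 0.499% higher and 0.169% lower. At 3 h, 1 was called, Dgka, which was lower (2.27% of members). Of all genes 1.05% were called at 3 h, 0.298% higher and 0.748% lower, or 1.61% with the replicate number as a block. Over the mean of both times 4 were called: Malt1, Plcg1 and Nfatc2 were higher and Dgka lower (9.09% of members). Of all genes 2.29% were called, 1.03% higher and 1.26% lower, or 2.96% with the block. The other 40 did not pass the test in any of these comparisons. Over all 44 members the median difference was 0.01 at 12 h, with 23 positive and 21 negative. At 3 h it was -0.01, with 21 positive and 23 negative. A median of mixed signs does not give the size of the differences. At an unadjusted p under 0.05 there were 10 of 44 members at 12 h and 7 of 44 at 3 h. Both are larger shares than the 6.37% and 9.09% of all genes. Without the 4 libraries numbered 2, 0 members were called at 12 h, 1 at 3 h and 2 over the mean. That fit had fewer libraries per group, and its calls over all genes are not given here. Malt1 at 12 h then differed by 0.62, against 0.64 in the main fit. These counts are therefore not read as a result about the members.

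**Figure D4:**
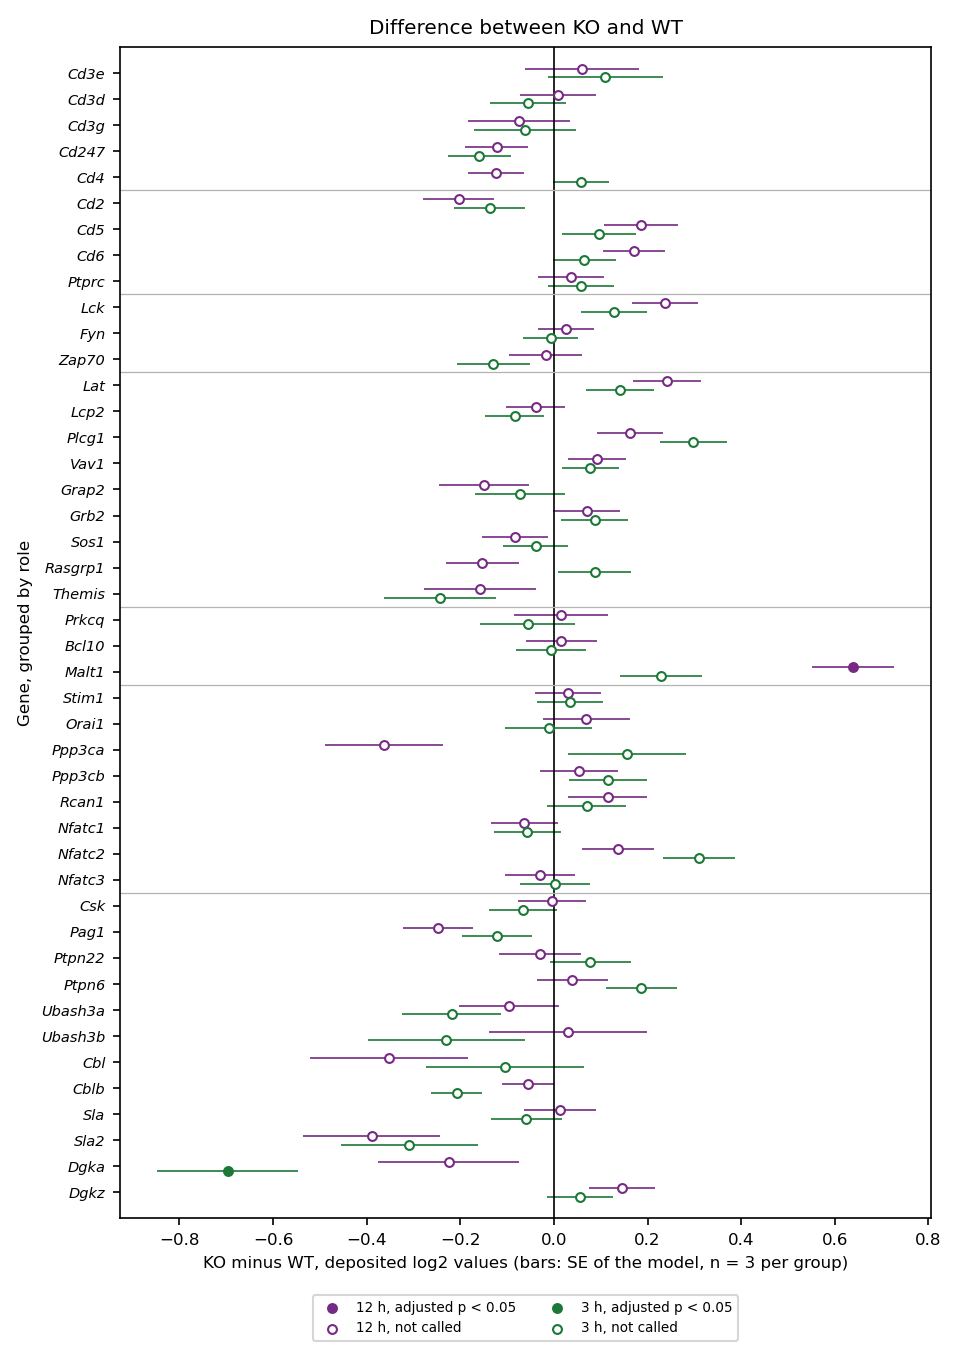
The difference KO minus WT in deposited log2 values for each member (horizontal axis) at 12 h (purple) and 3 h (green), with bars for the SE of the limma model (n = 3 per group) and filled points for an adjusted p under 0.05. A reader should see that only Malt1 at 12 h, with 0.64, and Dgka at 3 h, with -0.70, are filled, and that most points lie close to 0.

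Malt1, the protease and scaffold of a complex with BCL10 that leads to NF-κB (chromosome 18, 65430938 to 65479067), had 14.89, 15.15 and 15.24 in KO and 14.38, 14.47 and 14.51 in WT at 12 h, against 16.22, 15.96 and 16.08 in KO and 15.96, 15.84 and 15.77 in WT at 3 h. The KO-labelled values were all above the WT values at each time, by 0.52 to 0.73 between libraries of the same number at 12 h and by 0.12 to 0.31 at 3 h. The 12 h gap was 0.64 ± 0.09 with its SE, or 1.56-fold (n = 3 per group, limma adjusted p = 0.00198). The 3 h gap was 0.23 ± 0.09 (adjusted p = 0.359). Over both times it was 0.43 ± 0.06 (adjusted p = 0.00112), which was called in all 20 alternatives run for it. The call at 12 h was lost only without the 4 libraries numbered 2, where the difference was 0.62 (adjusted p = 0.083). Its partners differed by 0.02 ± 0.07 at 12 h for Bcl10 and 0.01 ± 0.10 for Prkcq, and were not called. The targeted gene, Smad4, lies on the same chromosome as Malt1 (chromosome 18, 73639009 to 73703780). Nfatc1 lies on chromosome 18 too, and it was not called between genotypes, with -0.06 ± 0.07 at 12 h and -0.06 ± 0.07 at 3 h. Whether DNA linked to the targeted allele has a part in the Malt1 difference was not tested.

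Dgka, the diacylglycerol kinase that holds back RAS signalling (chromosome 10, 128720134 to 128744855), was at 12.44, 12.31 and 12.45 in KO and 12.78, 12.56 and 12.54 in WT at 12 h. At 3 h it was at 11.92, 12.04 and 12.17 in KO and 13.21, 12.32 and 12.70 in WT. KO-labelled values were below all WT values at both times, and the WT libraries at 3 h were the most spread, with number 1 highest. The difference was -0.23 ± 0.15 at 12 h (adjusted p = 1.00), -0.70 ± 0.15 at 3 h (adjusted p = 0.0398, 0.0149 with the block) and -0.46 ± 0.11 over both (adjusted p = 0.0332). Without WT library 1 at 3 h, the difference at 3 h was -0.46 (adjusted p = 0.0963), and the call held in 7 of 21 alternatives. Of the 12 fits with 1 library left out, the call at 3 h held in 2. With Cd6, Dgka was 1 of the 2 members called over time in KO alone, with 0.35 ± 0.15 in KO and -0.12 ± 0.15 in WT (adjusted p = 0.0484 and 0.514), and that call held in 9 of 21 alternatives.

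Plcg1 (chromosome 2, 160731300 to 160775760) had 11.99, 12.01 and 12.21 in KO and 11.84, 11.89 and 11.98 in WT at 12 h, against 12.72, 12.76 and 12.61 in KO and 12.38, 12.49 and 12.34 in WT at 3 h. Its KO-labelled libraries were above all WT libraries at each time, and the difference was 0.16 ± 0.07 at 12 h (adjusted p = 0.695), 0.30 ± 0.07 at 3 h (adjusted p = 0.0582) and 0.23 ± 0.05 over both (adjusted p = 0.0244). For Nfatc2, whose values are given above, the KO-labelled libraries were likewise above WT at each time, by 0.14 ± 0.08 at 12 h, 0.31 ± 0.08 at 3 h and 0.22 ± 0.05 over both (adjusted p = 0.926, 0.0718 and 0.0425). With the replicate block the last became 0.055, and Nfatc2 was no longer called. The calls over both times held in 10 of 20 alternatives for Plcg1, 6 of 20 for Nfatc2 and 9 of 20 for Dgka.

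**Figure D5:**
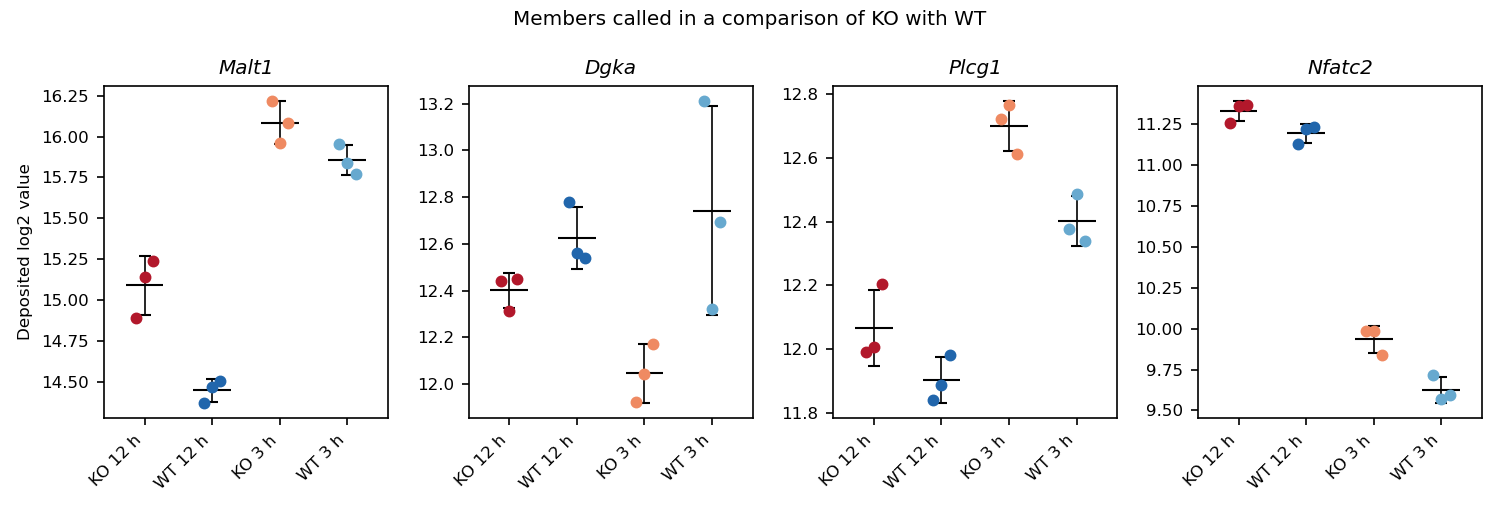
Deposited log2 values (vertical axis, a separate range in each panel) of the 4 members called in a comparison of KO with WT, in KO at 12 h, WT at 12 h, KO at 3 h and WT at 3 h, with 1 point per library, a line at the group mean and bars of 1 SD (n = 3). A reader should see that KO and WT points of 1 time do not overlap in any panel, and that the WT points of Dgka at 3 h are spread from 12.32 to 13.21.

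KO-labelled and WT libraries did not overlap for 12 members at 12 h (27.3% of the 44, against 12.8% of all genes) and for 10 at 3 h (22.7%, against 11.6%). At both times and in the same direction this held for 6 members, where 2.63% of all genes did so. Lat, Plcg1, Malt1 and Nfatc2 were above WT, where 1.13% of genes were, and Sla2 and Dgka below, where 1.5% were. Of these, Lat differed by 0.24 ± 0.07 at 12 h and 0.14 ± 0.07 at 3 h, and Sla2 by -0.39 ± 0.15 and -0.31 ± 0.15 (adjusted p = 0.243, 0.627, 0.515 and 0.55), and neither passed the test. Lck was above WT in 3 of 3 numbered pairs at each time, by 0.24 ± 0.07 at 12 h and 0.13 ± 0.07 at 3 h, and was not called (adjusted p = 0.23 and 0.664). This was not particular to Lck. Cd5, Cd6 and Vav1 were also above WT in every numbered pair, and Cd247 and Pag1 below, all of them uncalled. The share of all genes with such pairs was not counted. The receptor chains and Cd4 gave 0 calls in any genotype comparison, with differences from -0.12 for Cd4 to 0.06 for Cd3e at 12 h. Of the 14 B cell markers tested, 0 were called between genotypes, and 13 had a negative difference at each time, as did 53.2% of all genes at 12 h and 50.3% at 3 h. Their summed levels, given above, were lower in every KO-labelled library than in every WT library of the same time. Their part in the differences of the members was not tested.

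Whether the genotypes differed in the change from 3 h to 12 h was tested directly. No member and 0 of the 12436 genes passed (limma adjusted p), and 4 members had an unadjusted p under 0.05, with 497 genes in all (4%). With the block 3 genes passed (0.0241%) and with quantile normalization 2, none of them a member. The 4 members were Malt1, with a difference between the changes of 0.41 ± 0.12, Ppp3ca with -0.52 ± 0.18, Dgka with 0.47 ± 0.21 and Rasgrp1 with -0.24 ± 0.11. Their adjusted p was 0.738 for Malt1, 0.936 for Ppp3ca and 0.999 for the other two. The fall of Malt1 was the smaller one in KO, and those of Ppp3ca and Rasgrp1 the larger ones, on values that did not pass.

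Other genes of the pathway also changed with time. Of 101 listed, 94 were tested: 33 rose and 41 fell in KO (78.7%), and 36 rose and 39 fell in WT (79.8%), with medians of -0.07 and -0.02. Of all genes 68% were called in KO and 67.9% in WT, with 34.3% higher and 33.6% lower in each. Cd28, the costimulatory receptor, rose, by 1.25 ± 0.09 in KO and 1.27 ± 0.09 in WT (adjusted p = 4.17e-09 and 3.09e-09). Tespa1, a thymocyte protein linked to LAT signalling, fell, with -1.12 ± 0.07 in KO and -1.06 ± 0.07 in WT (adjusted p = 5.33e-10 and 1.02e-09). Evl, an actin regulator, rose, by 3.26 ± 0.20 in KO and 2.68 ± 0.20 in WT (adjusted p = 1.13e-09 and 1.01e-08). Among RAS and MAP kinase genes, Mapk14, which encodes p38α, rose, by 1.76 ± 0.07 in KO and 1.62 ± 0.07 in WT (adjusted p = 5.52e-12 and 1.24e-11). In the arm of BCL10 and MALT1, Map4k1, the kinase HPK1, rose, by 0.99 ± 0.11 in KO and 0.98 ± 0.11 in WT (adjusted p = 8.65e-07 and 9.27e-07). Casp8 fell, with -0.69 ± 0.07 in KO and -0.63 ± 0.07 in WT (adjusted p = 4.89e-07 and 1.35e-06). In the calcium branch, Calm3, a calmodulin gene, rose, by 1.04 ± 0.07 in KO and 1.03 ± 0.07 in WT (adjusted p = 3.2e-09 and 3.53e-09). Orai2, a relative of Orai1, fell, with -0.94 ± 0.10 in KO and -0.93 ± 0.10 in WT (adjusted p = 9.27e-07 and 1.08e-06). Among negative regulators, Rasal3, a RAS GTPase activator, rose, by 0.58 ± 0.07 in KO and 0.59 ± 0.07 in WT (adjusted p = 2.99e-06 and 2.32e-06). Dgkh, a further diacylglycerol kinase, fell, with -2.91 ± 0.16 in KO and -2.39 ± 0.16 in WT (adjusted p = 2.79e-10 and 2.42e-09).

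The 24 listed genes that T cell receptor signals are known to induce were mostly lower at 12 h. In KO 3 rose and 20 fell, and in WT 2 rose and 20 fell (95.8% and 91.7% called, against 68% and 67.9% of all genes, of which 33.6% were lower in each), with medians of -1.40 and -1.31. Nr4a1, an orphan receptor switched on soon after stimulation, was at 14.46, 13.99 and 14.31 in KO and 14.34, 13.89 and 14.02 in WT at 12 h, against 17.80, 17.93 and 18.01 in KO and 17.81, 17.88 and 17.86 in WT at 3 h. It was high in every library at 3 h and fell, with -3.66 ± 0.12 in KO and -3.77 ± 0.12 in WT (adjusted p = 1.43e-12 and 7.96e-13). Lag3, an inhibitory receptor, was at 12.54, 12.68 and 12.44 in KO and 12.26, 12.54 and 12.56 in WT at 12 h, against 9.16, 8.98 and 9.24 in KO and 9.67, 8.91 and 9.34 in WT at 3 h. It was high in every library at 12 h and rose, by 3.43 ± 0.15 in KO and 3.15 ± 0.15 in WT (adjusted p = 2.07e-11 and 4.9e-11). Cd69, an early activation marker, fell, with -1.97 ± 0.06 in KO and -1.85 ± 0.06 in WT (adjusted p = 9.71e-13 and 1.03e-12). Il2, the T cell growth factor, fell, with -1.52 ± 0.11 in KO and -1.35 ± 0.11 in WT (adjusted p = 4.53e-09 and 1.64e-08).

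Between genotypes, 0 of the 94 other pathway genes were called at 12 h, against 0.667% of all genes, with 16 at an unadjusted p under 0.05 (17%, against 6.37%). At 3 h 5 were called, 1 higher and 4 lower (5.32%, against 1.05%), and 6 with the block, which added Evl, with -0.82 ± 0.20 (adjusted p = 0.0706, 0.0418 with the block). Rcan3, a calcineurin regulator, averaged 10.27 ± 0.13 in KO-labelled cells at 3 h and 9.75 ± 0.23 in WT (SD, n = 3 each). It differed by 0.52 ± 0.11 (adjusted p = 0.0398). Fyb, the adaptor ADAP that links SLP-76 to integrins, was at 10.23, 10.31 and 10.51 in KO-labelled cells at 3 h, against 11.69, 10.65 and 11.18 in WT. It differed by -0.82 ± 0.18 (adjusted p = 0.0389), and WT library 1 was again the highest, as for Dgka. Pik3r5, a PI3 kinase subunit, differed by -0.71 ± 0.14, Mapk14 by -0.31 ± 0.07, and Tnfaip3, which encodes the NF-κB inhibitor A20, by -0.34 ± 0.08 (adjusted p = 0.0284, 0.0389 and 0.0456). Of 21 alternatives at 3 h the call held in 13 for Pik3r5, 9 for Rcan3, 8 for Fyb, 6 for Mapk14 and 5 for Tnfaip3. All 4 lower calls were lost without WT library 1 at 3 h. The limma adjusted p was then 0.1103 for Fyb, 0.1075 for Pik3r5, 0.1395 for Mapk14 and 0.1986 for Tnfaip3. All 4 were likewise lost without WT library 3, KO library 1 or KO library 3 at 3 h, so the loss was not particular to WT library 1. Rcan3 was lost without the 4 libraries numbered 2 (0.377, adjusted p = 0.3497). Over both times 7 of the 94 were called, 2 higher and 5 lower (7.45%, against 2.29% of all genes). The 5 genes called at 3 h were among these 7, and the others are not named here. Of 20 alternatives the call over both times held in 18 for Pik3r5, Fyb and Tnfaip3, 17 for Mapk14 and 9 for Rcan3. Of the 24 induced genes 0 were called at either time, with 8 at an unadjusted p under 0.05 at 12 h (33.3%, against 6.37% of all genes) and 5 at 3 h (20.8%, against 9.09%). With the block 1 was called at 3 h, Il2ra, with 0.29 ± 0.08 (adjusted p = 0.094, 0.041 with the block). Over both times 2 were called (8.33%, against 2.29% of all genes), or 3 with the block. The 2 were Il2ra, the α chain of the IL-2 receptor, which was higher by 0.25 ± 0.05, and Il2, which was lower, with -0.31 ± 0.07 (adjusted p = 0.0209 and 0.0387). These calls held in 13 of 20 alternatives for Il2ra and 8 of 20 for Il2. Il2, Il2ra and Cd69 were named after their values were seen.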

How the data were processed

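RNA of 12 libraries was measured, 3 in each of 4 groups. The authors deposited log2 expression values, normalised for depth, in 1 table of 24538 gene rows. The submitters' processing notes name the tools Trim Galore, STAR, featureCounts and DESeq2 with the mm10 build, their versions, options and transform not given in the sources used here. Rows at 0 in all libraries (5663), 0 rows at 0 in only some and 3989 negative row means have the form of a regularised log, which draws low genes together and keeps no counts, so changes of low genes come out too small and counting intervals could not be computed. The TruSeq V2 kit does not mark strand, so reads over exon bases shared by overlapping genes cannot be assigned by strand. Whether such reads were counted is not known, as the counting options are not given. All 12 columns matched 1 sample each and 0 were left unmapped.

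A mean per group was fitted over all 12 libraries with limma 3.58.1 in R 4.3.3 (lmFit, eBayes with trend, two-sided), on 12436 genes with a mean of at least 3. P-values were adjusted over all of them by Benjamini and Hochberg's method, and calls were made under 0.05. Errors of differences are SE, and of group means SD. The fit was tested on simulated data. Alternatives were quantile normalization, subtraction of library medians, no filter, a minimum of 5, no trend, array weights, the compared groups only, a replicate block, each library left out, and the 4 libraries numbered 2 left out. The members, lists and tests were chosen with earlier results of these data known. Values in every library are given for members called in a genotype comparison, for Cd3e, Cd3g, Cd247, Cd4, Lck and Zap70, for the 8 largest rises and 8 largest falls with time called in both genotypes, and for members called over time in 1 genotype. Of the other lists, the called gene with the largest rise and fall in a comparison was named, apart from 2 that are not reported here.

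Same-numbered libraries deviated together from their group means in KO against WT at 12 h (correlations 0.17, 0.50 and 0.19) and at 3 h (0.19, 0.40 and 0.35). They also did so over time in WT (0.21, 0.43 and 0.21). This pairing was read from the data. The main fit did not use it, so the main p-values are unpaired, and the replicate block is the alternative that uses the number. Gene positions are from GENCODE M21 (GRCm38), and promoters from RefSeq. Figures were drawn with matplotlib 3.10.9 in Python 3.11.15. The unpolarised cells and the time before treatment that the series describes were not analysed here.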

Additional observations from a re-analysis of the deposited data

How the results depend on the processing

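The change with time was stable in count: 37 to 40 members were called in KO and 37 to 39 in WT with any 1 library left out, against 39 each, and 33 of 39 in KO and 34 of 39 in WT were called under every alternative. Genotype calls were few and moved with the settings. At 12 h, against 1 member, 0 were called without the 4 libraries numbered 2 and 1 to 2 with 1 library left out. At 3 h, against 1, the count was 2 with library medians subtracted and 0 with no filter, no trend, array weights or only the compared groups, and 0 to 2 with 1 library left out. Over the mean of both times, against 4, it was 1 with no filter, 1 with no trend, 2 without the 4 libraries numbered 2, and 1 to 4 with 1 library left out. For the difference between the changes it was 0 throughout. Apart from single libraries left out, calls over all genes under these settings are not set beside these counts. Leaving out 1 library moved the calls over all genes to 50 to 103 at 12 h, 22 to 261 at 3 h, 155 to 392 over the mean, 0 to 28 for the difference between the changes, 7932 to 8538 over time in KO and 7777 to 8521 in WT, and the causes were not tested. Of the log2 differences of members over all settings and comparisons, 5169 kept their direction and side of the threshold, 93 lost the call and 23 gained one. A further 170, called neither before nor after, changed sign or came to 0. Of the called ones 1 turned, Dgkz over time in KO, with 0.011 under quantile normalization. For the other genes named, 2160 were kept, 109 lost the call, 15 gained one, 72 uncalled ones changed sign or came to 0, and 0 called ones turned.

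With the replicate block, the members called were 1 at 12 h, 1 at 3 h, 3 over the mean (Nfatc2 was lost), 0 for the difference between the changes and 39 over time in WT, and it changed no other member's call there. Over time in KO the numbers did not pair the libraries (correlations 0.06, 0.37 and 0.09, with 1 of 3 numbers matching itself best), and the block gave 39 with Cd3e gained (adjusted p = 0.00164) and Dgkz lost (0.0511). Cd3e over time in WT was not called without WT library 2 or 3 at 3 h or WT library 1 at 12 h (0.22, 0.29 and 0.22). Sos1 over time in WT was not called without WT library 3 at 3 h or WT library 2 at 12 h. Depth is unknown, so what it limits could not be stated.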
